A study of Mus musculus with 6 samples.

Results

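The subject of this account is the set of nuclear genes for the proteins of the mitochondrial ribosome. Members were chosen by symbol, as every gene of the deposited table named Mrpl or Mrps followed by a number, without the 6 symbols that carry the pseudogene suffix. The rule gave 78 of the 55367 symbols, 49 named for the large subunit (Mrpl) and 29 for the small subunit (Mrps), and it used no measured value. Expression was measured in 6 Smart-seq2 libraries, a method that copies polyadenylated RNA along its length and amplifies it by PCR, from red fluorescent cells of the mouse hippocampal dentate gyrus isolated by cell sorting. All 6 libraries were of genotype TRAP2;Ai9, in which a tamoxifen-dependent Cre is made from the locus of the activity gene Fos and switches on a tdTomato reporter for good, so that every group holds cells picked for past Fos activity. All mice were LH+, the label for learned helplessness, a state of failing to escape after stress that could not be controlled. The 3 NR libraries came from mice without running and the 3 Run libraries from mice with 28 days of voluntary running, and the labels put all 6 in 1 batch. The sources used here give neither the age of the mice nor how many mice or cells stand behind a library. A p-value below thus speaks only to how far these libraries scatter, and that scatter may be technical. The design compares tagged cells, labelled as neurons, of LH+ mice with and without running.

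Mitochondria keep their own ribosomes, which translate the few mRNAs of the mitochondrial genome, all of them for proteins of the respiratory chain and ATP synthase. The ribosomal RNAs come from the mitochondrial genome, while every protein of this ribosome is encoded in the nucleus, made in the cytosol and imported. Some of these proteins descend from bacterial ribosomal proteins and others have no bacterial counterpart, and neurons rely on respiration for most of their ATP.

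The values are FPKM, read fragments divided by transcript length and library size, so that levels can be set beside each other between genes. Values of a gene are given in the order of replicates 1, 2 and 3 of each group. A gene is called detected in a library at 1 FPKM or more. Such values hold no read totals, so the depth of each library is unknown, and a gene listed at 0 may be a failed estimate. Detected symbols numbered 5426, 7355 and 5980 across NR and 6291, 6136 and 5534 across Run.

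The labelled cell type was checked with 8 markers for each of 6 cell types. Neuron markers detected numbered 3, 7 and 6 across NR and 8, 7 and 6 across Run, with summed FPKM from 273 to 958. Of these, Snap25, Map2 and Tubb3 were detected in all 6 libraries. Dentate granule neuron markers numbered 0, 4 and 2 across NR and 4, 4 and 2 across Run. Prox1, Calb1 and C1ql2 were detected in 4 libraries each, Stxbp6 in 3 and Ntng1 in 1. Dsp, Tdo2 and Lct were below 1 FPKM in every library. Astrocyte markers, in contrast, were detected at 7 or 8 of 8 in every library, with sums from 2468 to 5257. In each of the 6 libraries the astrocyte sum was above the neuron sum, which goes against the label of sorted neurons. Aldoc was the largest part of each astrocyte sum, at 1028 to 2655 FPKM. By the median of detected markers, Run replicate 1 went the other way, with 81.2 FPKM for neuron and 78.6 FPKM for astrocyte markers. The astrocyte median was the higher in every other library. Oligodendrocyte markers numbered 5, 7 and 8 across NR and 4, 8 and 6 across Run, microglia markers 1, 6 and 6 across NR and 3, 6 and 4 across Run and endothelial markers 5, 7 and 5 across NR and 5, 6 and 6 across Run. NR replicate 1 had the fewest mitochondrial ribosomal protein genes, the fewest neuron and granule neuron markers and the fewest microglia markers detected. Fewer cells of a type and less RNA per cell cannot be told apart in such libraries. The part of cell makeup in what follows was not tested.

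The 78 genes lay on 17 chromosomes, with at most 11 on 1 chromosome. For 69 of the 78 a promoter was found in the RefSeq table for build GRCm38.p6, the assembly that mm10 denotes. In these, 3 motifs of factors known as regulators of genes for mitochondrial proteins were searched on both strands of the 300 bases around each start. The NRF1 motif (GCGCA, 1 base of any kind, then GCGC) was held by 13 of the 69 (18.8%), against 13.1% of 4180 tested genes with an entry and 5.19% of 27025 genes in all. The YY1 motif AAGATGGC was held by 12 members (17.4%), against 5.91% and 3.19%. The ETS motif CCGGAAGT, the core bound by GABP, also known as NRF2, was held by 12 members (17.4%), against 9.71% and 4.31%. The E-box CACGTG, with 5 of 69 (7.25% against 12.2% and 8.09%), and the TATA box TATAAA, with 5 of 69 (7.25% against 9.52% and 15.7%), were no more frequent in members than in tested genes. At least 1 of the NRF1, YY1 and ETS motifs was held by 34 of the 69, and by 6 of the 13 members that were detected in all 6 libraries and had an entry. A match is only a run of letters, and none of these data measure binding.

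Promoters of 6 members are shown because the comparison below turns on them or because they hold the motifs. They span 120 bases before to 30 bases from the RefSeq start, on the strand of the gene, from 5′ to 3′, in build GRCm38.p6. Capitals mark a match to the NRF1, YY1 or ETS motif on either strand. The first 3 belong to members whose NR and Run values did not overlap, and hold none of the 3 motifs. Other members without overlap do hold them in the 300 bases. Mrpl27, Mrpl33 and Mrps18c have an ETS match and Mrps24 a YY1 match, while Mrpl21 has none and Mrpl38 has no entry.
Mrpl50 (chr4:49521054-49521203, minus strand): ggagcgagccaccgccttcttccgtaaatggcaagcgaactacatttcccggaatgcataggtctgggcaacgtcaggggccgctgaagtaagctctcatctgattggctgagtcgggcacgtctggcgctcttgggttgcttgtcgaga
Mrps15 (chr4:126046808-126046957, plus strand): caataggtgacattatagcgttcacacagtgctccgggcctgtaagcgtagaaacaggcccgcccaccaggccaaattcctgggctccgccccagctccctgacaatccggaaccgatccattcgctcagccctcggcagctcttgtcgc
Mrpl34 (chr8:71464806-71464955, plus strand): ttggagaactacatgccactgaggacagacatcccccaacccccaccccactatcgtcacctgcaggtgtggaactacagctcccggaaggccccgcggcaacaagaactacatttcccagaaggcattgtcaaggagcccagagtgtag
The next promoter, of a member lower in Run at an unadjusted p, holds an NRF1 match that reads the same on both strands, 28 bases before the start.
Mrpl9 (chr3:94443216-94443365, plus strand): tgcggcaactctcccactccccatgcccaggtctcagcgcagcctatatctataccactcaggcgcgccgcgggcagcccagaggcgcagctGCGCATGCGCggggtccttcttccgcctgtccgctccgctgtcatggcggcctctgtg
Mrpl33, among the steadiest members and also without overlap, has an ETS match that begins 3 bases before the start.
Mrpl33 (chr5:31613831-31613980, plus strand): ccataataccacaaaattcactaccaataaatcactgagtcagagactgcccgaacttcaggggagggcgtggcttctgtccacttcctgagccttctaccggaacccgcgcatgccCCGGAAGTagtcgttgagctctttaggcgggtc
Mrps27, listed at 0 in NR and detected in 2 Run libraries, has an ETS match on the opposite strand and a YY1 match after the start.
Mrps27 (chr13:99344666-99344815, plus strand): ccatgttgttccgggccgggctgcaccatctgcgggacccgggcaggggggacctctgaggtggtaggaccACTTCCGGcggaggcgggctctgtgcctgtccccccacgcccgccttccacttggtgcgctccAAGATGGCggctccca

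Most mitochondrial ribosomal protein genes were seen in some libraries and not in others. Of the 468 values (78 genes in 6 libraries), 306 (65.4%) were at 1 FPKM or more, 34 lay between 0 and 1, and 128 (27.4%) were listed at 0. Detected values were rarely low: 281 were at least 10 FPKM and 25 lay from 1 to 10, with a median of 51.4 FPKM. Pooled over the genes, most values were thus either at least 10 FPKM or listed at 0, although 27 members had values between 0 and 1. Of the members, 14 (17.9%) were detected in all 6 libraries, 18 in 5, 17 in 4, 15 in 3, 7 in 2, 5 in 1 and 2 in none. Without NR replicate 1, 20 were detected in all of the other 5 libraries. Over all 55367 symbols, 3.16% were detected in all 6 libraries and 76.9% in none.

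**Figure D1:**
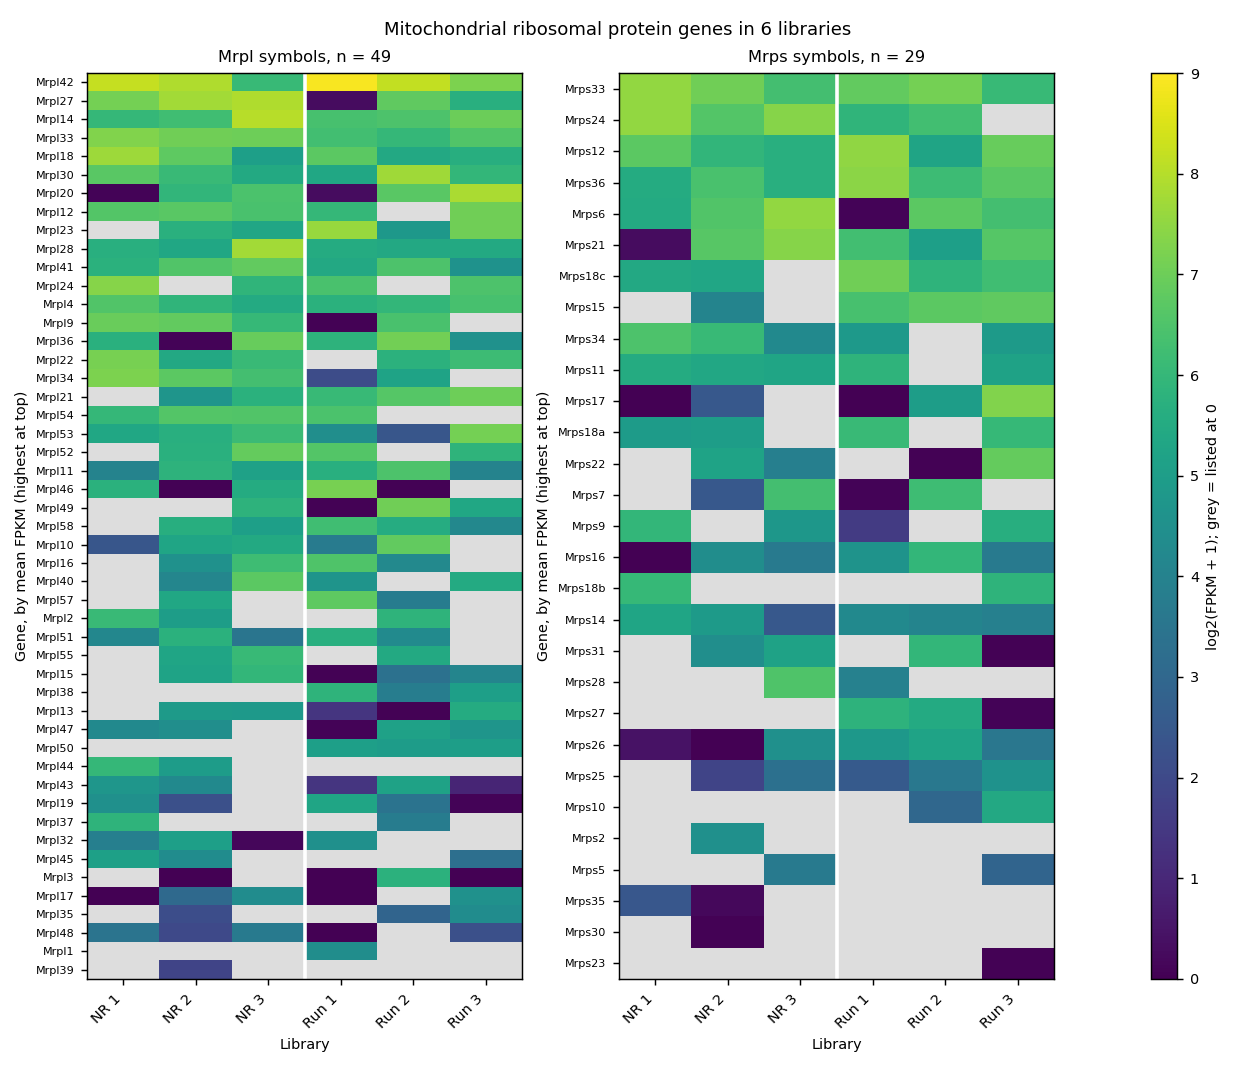
Level of each of the 78 genes (rows, by mean FPKM) in each library (columns) as log2(FPKM + 1), large subunit symbols at left and small subunit symbols at right. Grey cells are values listed at 0, which make up 27.4% of the 468 values and lie in every library.

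The cytosolic ribosome and respiratory complex I, whose genes are also needed in every cell, were seen far more evenly. Of 82 cytosolic ribosomal protein genes, 76 were detected in all 6 libraries, 94.7% of values were detected, and the median of the gene means was 252 FPKM. Of 37 Nduf genes of complex I, 26 were detected in all 6, with 93.7% of values and a median of 179 FPKM. For the members the median of the gene means was 32.1 FPKM, so they were also the lowest of the 3 sets. These differences in detection are descriptions of 3 gene sets of unequal level and were not tested.

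**Figure D2:**
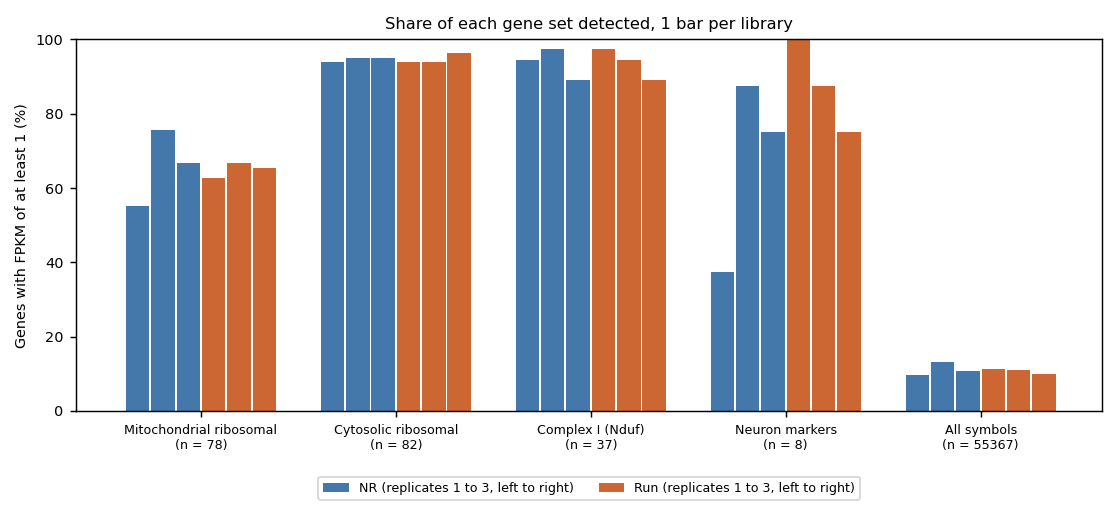
Percent of the genes of each set detected (FPKM of at least 1), 1 bar per library, NR replicates 1 to 3 and then Run replicates 1 to 3 from left to right. The members lie between 55.1% and 75.6% and the cytosolic ribosomal protein genes between 93.9% and 96.3%.

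Members detected numbered 43, 59 and 52 across NR and 49, 52 and 51 across Run. The fewest were in NR replicate 1 and the most in NR replicate 2, the libraries with the fewest and the most detected symbols of all, and the Run counts lay inside the NR range. The FPKM summed over the 78 genes was 3326, 3174 and 3709.7 across NR and 3437, 3238 and 3264 across Run. The highest sum was 1.17 times the lowest (1.37 times for the 14 members detected in all 6 libraries and 1.34 times for the other 64), and the sum was 0.663% to 0.783% of the FPKM of a library. Its means were 3404 ± 276 (SD, n = 3) for NR and 3313 ± 108 (SD, n = 3) for Run, a difference smaller than either SD. The 5 members with the highest means held 21.5% of all member FPKM, the 10 highest held 35.1%, and the 14 detected in all 6 libraries held 38.1%.

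The large subunit by name had 68.7% of its values detected and 10 of 49 genes in all 6 libraries, and the small subunit 59.8% and 4 of 29. Run replicate 3 had the reverse order, with 63.3% of the large and 69.0% of the small subunit symbols detected. Split by origin and pooled over the 6 libraries, detected values made up 73.6% for the 29 bacterial-type large subunit members, 59.5% for the 21 mitochondria-specific ones, 65.6% for the 16 bacterial-type small subunit members and 51.7% for the 10 mitochondria-specific ones. In Run replicate 1 the large subunit went the other way, with 65.5% of the bacterial-type and 66.7% of the mitochondria-specific members detected. Mrps18a and Mrps30, which structures place in the large subunit despite their names, were counted there. Mrpl55 and Mrps36 were kept apart, the latter because Mrps36 is now known as a component of the oxoglutarate dehydrogenase complex. Detection also moved with transcript length, taken as the longest annotated transcript. The 26 shortest (488 to 1138 bp) were detected in a mean of 4.65 libraries, the middle 26 (1219 to 2741 bp) in 3.73 and the 26 longest (2799 to 7300 bp) in 3.38. The medians of their mean levels were 62.5, 29.0 and 14.1 FPKM. The part of length, level and origin in the detection was not tested.

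**Figure D3:**
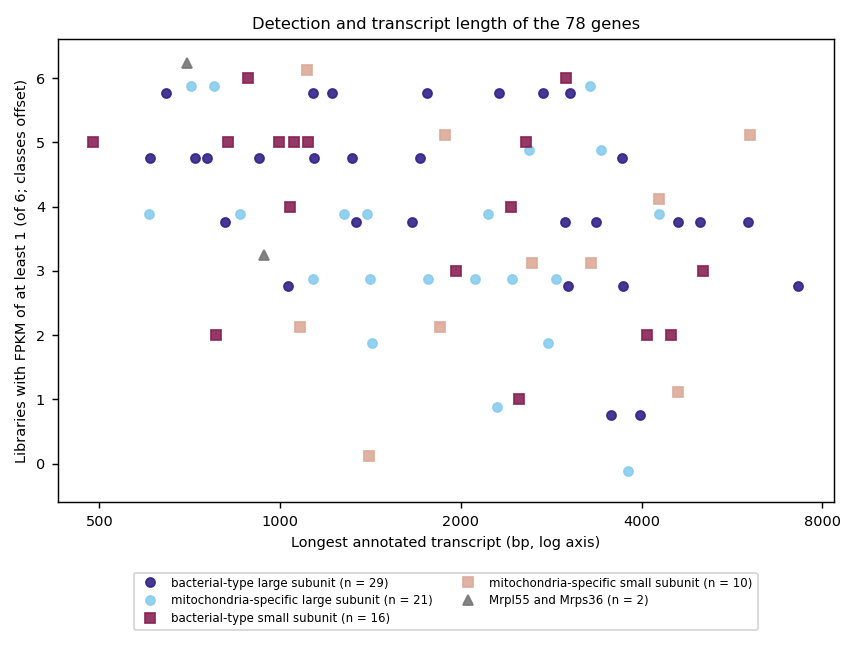
Number of libraries in which a gene was detected (vertical axis, classes offset slightly) against the length of its longest annotated transcript in base pairs (log axis), 1 point per gene. Of the 14 genes detected in all 6 libraries, 7 are among the 26 shortest and 3 among the 26 longest.

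The highest large subunit members by name were Mrpl42, a mitochondria-specific protein, with a mean of 254 FPKM over the 6 libraries, Mrpl27, a bacterial L27 homologue near the peptidyl transferase centre, with 126, Mrpl14 with 116, Mrpl33 with 108 and Mrpl18 with 90.4. Of these 5 only Mrpl27 fell below 1 FPKM in a library. Mrpl42 measured 293, 245 and 65.9 FPKM across NR and 483, 290.00 and 149 FPKM across Run. The groups overlapped, with the lowest value in NR replicate 3 and the highest in Run replicate 1. The highest small subunit members by name were Mrps33 with a mean of 119 FPKM, Mrps24 with 96.5, Mrps12, the S12 homologue at the decoding centre, with 92.6, Mrps36 with 87.8 and Mrps6 with 84.1.

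The 14 members detected in all 6 libraries allow a mean with its SD (n = 3 each). Among those of the large subunit, Mrpl4, whose bacterial counterpart lines the exit tunnel, measured 65.1 ± 24.8 FPKM without running (NR) and 65.2 ± 15.7 FPKM with it (Run). It was the steadiest of all tested members, with an SD of 0.40 over the 6 log2(FPKM + 1) values, followed by Mrpl33 with 0.50 and Mrps33 with 0.55. Mrpl14 measured 133 ± 110.3 FPKM without running (NR) and 99.2 ± 22.8 FPKM with it (Run). Mrpl28 measured 102 ± 98.8 FPKM without running (NR) and 43.6 ± 1.73 FPKM with it (Run), where NR replicate 3 alone, at 216 FPKM, lay far above the others. The groups overlapped in both genes. Mrpl18 measured 116 ± 85.9 FPKM without running (NR) and 65.3 ± 34.9 FPKM with it (Run). Mrpl30 measured 71.7 ± 30.3 FPKM without running (NR) and 104 ± 92.6 FPKM with it (Run). Mrpl11, at the base of the stalk that recruits translation factors, measured 34.9 ± 19.8 FPKM without running (NR) and 51.2 ± 36.8 FPKM with it (Run). In each of these the group means differed by less than the larger SD. Mrpl41 measured 86.5 ± 30.7 FPKM without running (NR) and 51.3 ± 33.7 FPKM with it (Run), a difference of means slightly above the SDs. Mrpl53, a mitochondria-specific protein, measured 52.9 ± 14.6 FPKM without running (NR) and 54.1 ± 72.2 FPKM with it (Run), with nearly equal means.

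Of the 4 small subunit symbols detected in all 6 libraries, Mrps33 measured 132 ± 53.3 FPKM without running (NR) and 106 ± 36.9 FPKM with it (Run). Mrps12 measured 72.1 ± 29.9 FPKM without running (NR) and 113 ± 72.7 FPKM with it (Run). Mrps14 was the lowest, at 23.7 ± 17.3 FPKM without running (NR) and 15.99 ± 2.30 FPKM with it (Run). Mrps36 measured 45.8, 84.6 and 50.8 FPKM across NR and 171, 71.4 and 103 FPKM across Run, with means of 60.4 ± 21.1 and 115 ± 50.9. The groups of Mrps36 overlapped through NR replicate 2 and Run replicate 2. Its pseudogene Mrps36-ps1 stood at 12.5% to 16.003% of the Mrps36 value in every library, so reads of the 2 may have been divided between them and both levels are uncertain to that extent. The same held for Mrpl23, whose pseudogene Mrpl23-ps1 stood at 11.4% to 18.8% of it in the 5 libraries where Mrpl23 was above 0, and was listed at 0 with it in NR replicate 1. Mrpl27-ps was at most 1.39% of Mrpl27.

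At the other end, Mrps23 and Mrps30 stayed below 1 FPKM in all 6 libraries. Mrps23, a small subunit protein, was above 0 only in Run replicate 3, at 0.0260 FPKM, and Mrps30, of the large subunit, only in NR replicate 2, at 0.0474 FPKM. The genes with the widest swings among those tested were Mrpl20, Mrpl24 and Mrpl46, with SDs over the 6 log2(FPKM + 1) values of 3.44, 3.41 and 3.39. Mrpl20 measured 0.0602, 59.7 and 86.8 FPKM across NR and 0.217, 104 and 232 FPKM across Run. Both groups of Mrpl20 held values near 0 and values far above it, so the swing was within groups. Mrpl24 was listed at 0 in replicate 2 of both groups and lay between 58.9 and 163 FPKM elsewhere.

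Paralogues and members with special roles showed the same scatter. The 3 genes named for S18 are Mrps18c, the homologue of bacterial S18, Mrps18b, also of the small subunit, and Mrps18a of the large subunit. Mrps18a measured 30.02, 31.4 and 0 FPKM across NR and 67.9, 0 and 63.6 FPKM across Run, and Mrps18b only 64.4 FPKM in NR replicate 1 and 57.3 FPKM in Run replicate 3, with 0 elsewhere. Mrpl12, the stalk protein that also binds the mitochondrial RNA polymerase, measured 95.7, 103 and 83.9 FPKM across NR and 62.2, 0 and 131 FPKM across Run. It was thus high in 5 libraries and listed at 0 in Run replicate 2. Mrpl58, a peptidyl-tRNA hydrolase built into the large subunit, measured 0, 48.9 and 32.7 FPKM across NR and 75.3, 47.1 and 17.5 FPKM across Run, with overlapping groups. Mrpl44, which resembles RNase III, was detected in NR replicates 1 and 2 alone, at 62.99 and 30.4 FPKM. Mrps27, a protein with pentatricopeptide repeats whose promoter with ETS and YY1 matches is shown above, was listed at 0 in all NR libraries and measured 55.3, 44.2 and 0.0575 FPKM in Run. Neither Mrpl44 nor Mrps27 reached 1 FPKM in enough libraries to be tested.

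No mitochondrial ribosomal protein gene differed between Run and NR at the adjusted threshold. Among the members with the smallest p, Mrpl50, Mrpl38 and Mrps15 were higher in Run, and Mrpl34 and Mrpl9 were lower, all 5 at an unadjusted p under 0.05 only. Mrpl50 and Mrpl38 entered the test through their Run libraries alone. The 64 members detected in 3 or more libraries were tested, 44 named for the large and 20 for the small subunit, with limma on log2(FPKM + 1) over all 6155 genes that passed this filter. At a Benjamini-Hochberg adjusted p under 0.05, limma called 0 of the 64 members, and 0 of all tested genes (0%). At an unadjusted p under 0.05 it called 5 of 64 members (7.81%), against 4.94% of all tested genes. Of the 5, 3 were higher in Run (2.45% of all tested genes) and 2 lower (2.49%). Without the genes detected in all 3 libraries of 1 group and in none of the other, 3 of 62 members (4.84%) and 2.74% of the 6011 tested genes left were at an unadjusted p under 0.05. Without NR replicate 1, the library with the fewest members detected, 3 members were at an unadjusted p under 0.05 (5.17% of all tested genes), and likewise 3 without NR replicate 2 (5.93%), Mrpl50, Mrpl38 and Mrps15 each time. Without NR replicate 2, Mrps15 too was listed at 0 in the NR libraries left, so that all 3 were then detected in Run alone. With only genes detected in all 6 libraries tested, 14 members remained in the test and 0 of them were at an unadjusted p under 0.05 (4.68% of all genes tested then).

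The 14 untested members were Mrpl1, Mrpl3, Mrpl37, Mrpl39, Mrpl44, Mrps2, Mrps5, Mrps10, Mrps18b, Mrps23, Mrps27, Mrps28, Mrps30 and Mrps35. Each was detected in 2 libraries or fewer. Of these, Mrpl1, Mrpl3, Mrps10 and Mrps27 were detected in Run libraries alone, and Mrpl39, Mrpl44, Mrps2 and Mrps35 in NR libraries alone. Mrps10 measured 7.02 and 41.8 FPKM in Run replicates 2 and 3.

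The direction of the members was mixed. Of the 64, 27 had a positive and 37 a negative difference, Run minus NR (42.2% positive, against 48.9% of the 6155 tested genes). The median log2 difference was −0.26 over the tested members and −0.03 over all tested genes. Without NR replicate 1 it was −0.53 (all tested genes −0.07), and without Run replicate 2 it was −0.08 (all tested genes 0.05). Without NR replicate 2 or Run replicate 2, 46.9% of the members were positive. The median was −0.39 without Mrpl50 and Mrpl38, which were listed at 0 in a whole group and whose size therefore depends on the pseudocount. By name the median was −0.55 for the large subunit (17 positive, 27 negative) and 0.15 for the small subunit (10 and 10), and no test of that difference was made. The scatter of members around their group means was wide, with a median residual SD of 2.46 on the log2(FPKM + 1) scale, against 1.98 over all tested genes, 0.57 for cytosolic ribosomal protein genes and 0.93 for Nduf genes.

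**Figure D4:**
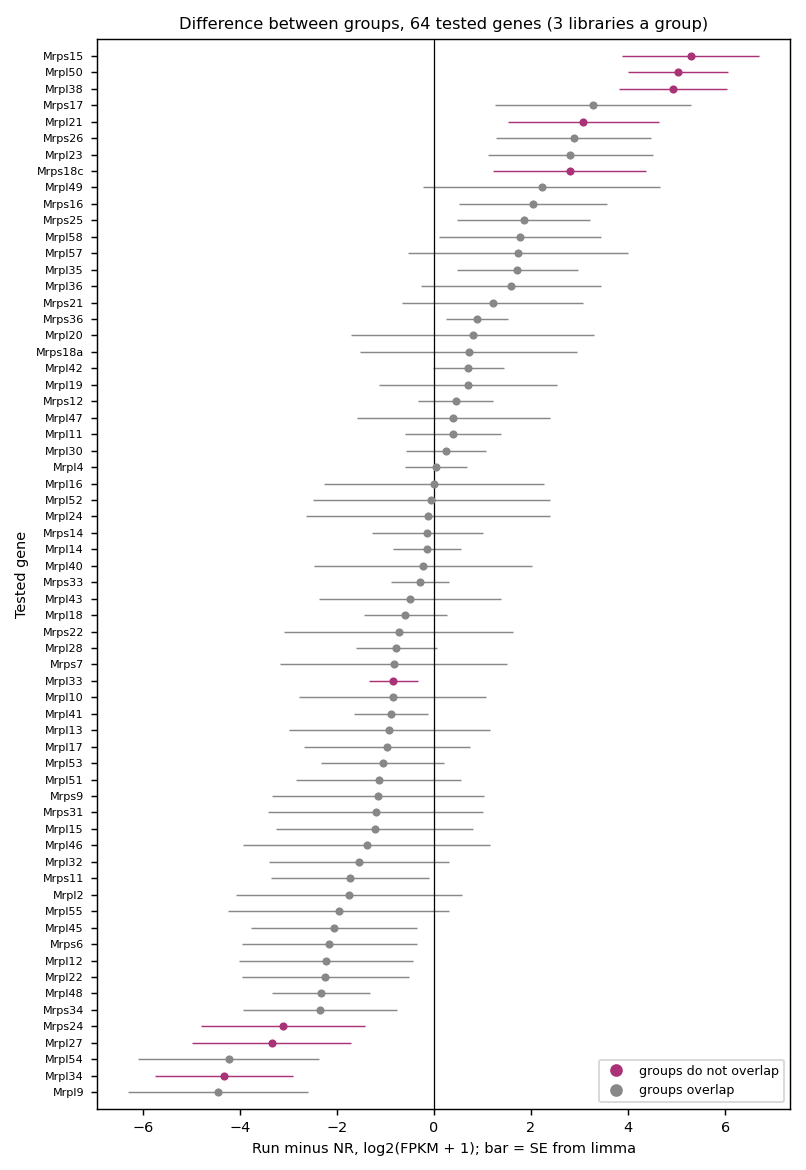
Run minus NR difference in log2(FPKM + 1) (horizontal axis) for each of the 64 tested genes (vertical axis), with the SE from limma as bars. Of these, 27 lie above 0 and 37 below, and 9 (marked) have groups that do not overlap, and the sizes of genes with values at 0, Mrpl50 and Mrpl38 among them, depend on the pseudocount of 1.

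In 9 of the 64 members (14.1%) the NR and Run values did not overlap, against 8.95% of all tested genes. In 5 (7.81%, against 4.76%) every Run library lay above every NR library, and in 4 (6.25%, against 4.19%) every one lay below. Without the genes detected in all 3 libraries of 1 group and in none of the other, the shares were 7 of 62 members (11.3%) and 6.77% of all genes, with 3 members (4.84%, against 3.83%) above and 4 (6.45%, against 2.94%) below. The number was 13 without NR replicate 1 (17.4% of all tested genes), 12 without NR replicate 2 (19.1%) and 18 without NR replicate 3 (16.4%). It was 18 without Run replicate 1 (19.2%), 15 without Run replicate 2 (20.4%) and 14 without Run replicate 3 (18.1%), where fewer libraries leave less room for overlap. Among the 14 members detected in all 6 libraries it was 1, against 9.19% of all genes so detected. The members higher in Run by this measure were Mrpl50, Mrpl38, Mrps15, Mrpl21 and Mrps18c.

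Mrpl50, a mitochondria-specific protein of the large subunit at chr4:49512596-49521093 in mm10, measured 0, 0 and 0 FPKM across NR and 32.6, 30.2 and 31.8 FPKM across Run. The 3 Run libraries were nearly equal and all NR libraries were listed at 0. Mrpl38, also mitochondria-specific and of the large subunit, at chr11:116131817-116138868, measured 0, 0 and 0 FPKM across NR and 57.3, 12.9 and 32.7 FPKM across Run. Again no NR library was above 0, and Run replicate 2 was the lowest of Run. No fold or p value is printed for these 2 genes, since a group is listed at 0. Both passed the filter through their 3 Run libraries alone, so that their groups could not overlap once they were in the test.

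Mrps15, the homologue of bacterial S15, an early rRNA-binding protein, lies at chr4:126046925-126055532 and measured 0, 15.7 and 0 FPKM across NR and 82.1, 106 and 111 FPKM across Run. The Run libraries were close to each other, and NR replicate 2 was the only NR library above 0. The difference was 5.29 ± 1.40 (SE) on the log2(FPKM + 1) scale (limma, unadjusted p = 0.00707, adjusted p = 0.357). Mrpl21, the L21 homologue, at chr19:3282901-3292837, measured 0, 24.8 and 53.4 FPKM across NR and 65.6, 97.1 and 129 FPKM across Run. Its groups were separated by a narrow gap, between NR replicate 3 and Run replicate 1, and the difference was 3.08 ± 1.55 (SE) on the log2(FPKM + 1) scale (limma, unadjusted p = 0.0873, adjusted p = 0.978). It was 1.34 without NR replicate 1. Mrps18c, at chr5:100798627-100804471, measured 41.7, 38.7 and 0 FPKM across NR and 130.04, 56.5 and 74.6 FPKM across Run, with NR replicate 3 listed at 0 and the other NR libraries below the lowest Run library. The difference was 2.80 ± 1.57 (SE) on the log2(FPKM + 1) scale (limma, unadjusted p = 0.119, adjusted p = 0.978). Without NR replicate 3 it was 1.01.

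Mrpl34, Mrpl27, Mrps24 and Mrpl33 were lower in Run without overlap. Mrpl34, the homologue of the small bacterial protein L34, at chr8:71464959-71465747, measured 147, 107 and 78.8 FPKM across NR and 3.29, 35.9 and 0 FPKM across Run. Every NR library was above the highest Run library, Run replicate 2, and the difference was −4.32 ± 1.43 (SE) on the log2(FPKM + 1) scale (limma, unadjusted p = 0.0192, adjusted p = 0.684). Mrpl27, at chr11:94653767-94660089, measured 138, 216 and 241 FPKM across NR and 0.232, 109.99 and 50.1 FPKM across Run. All 3 NR values were high and Run replicate 1 was near 0, with a difference of −3.34 ± 1.64 (SE) on the log2(FPKM + 1) scale (limma, unadjusted p = 0.0812, adjusted p = 0.978), and of −1.36 without Run replicate 1. Mrps24, the homologue of bacterial S3, at chr11:5703983-5715680, measured 187, 94.4 and 163 FPKM across NR and 58.5, 76.1 and 0 FPKM across Run. Run replicate 3 was listed at 0 and the lowest NR library was above the highest Run library, with a difference of −3.11 ± 1.68 (SE) on the log2(FPKM + 1) scale (limma, unadjusted p = 0.107, adjusted p = 0.978), and of −1.08 without Run replicate 3.

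Mrpl33, the L33 homologue at chr5:31596935-31664384, was the only member that was detected in all 6 libraries and did not overlap. It measured 158, 130.2 and 127 FPKM across NR and 77.2, 63.01 and 93.1 FPKM across Run, with means of 138 ± 16.6 and 77.8 ± 15.05 (SD, n = 3 each). The difference was −0.83 ± 0.51 (SE) on the log2(FPKM + 1) scale, larger than the spread within either group. It did not pass limma's test (unadjusted p = 0.146, adjusted p = 0.978). That SE also draws on the scatter of other tested genes, while the residual SD of Mrpl33 itself was 0.23. Mrpl9, the L9 homologue at chr3:94443318-94451130, measured 123, 113 and 63.9 FPKM across NR and 0.0329, 84.4 and 0 FPKM across Run. Its groups overlapped through Run replicate 2, while the other Run libraries were at or near 0, and the difference was −4.45 ± 1.85 (SE) on the log2(FPKM + 1) scale (limma, unadjusted p = 0.0470, adjusted p = 0.978). With a pseudocount of 5 it was −2.95.

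**Figure D5:**
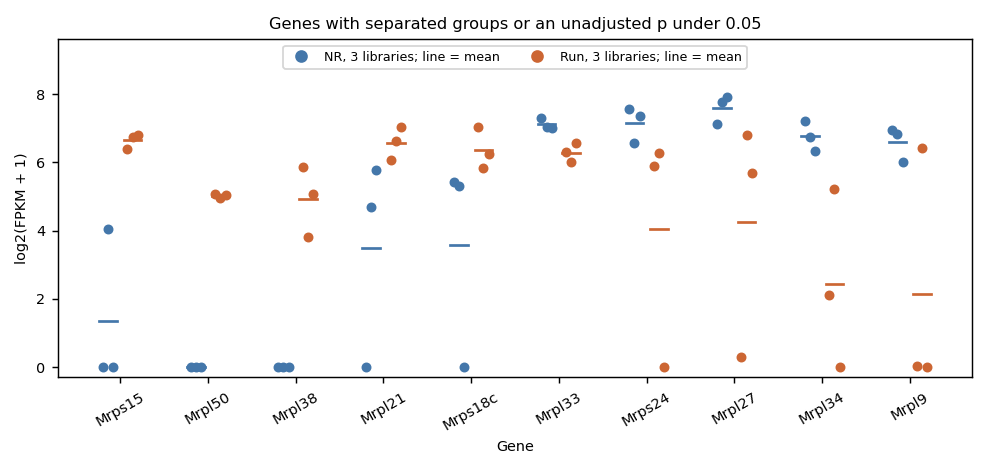
Value of each library, as log2(FPKM + 1), for the 9 genes whose groups did not overlap and for Mrpl9, with NR in blue, Run in orange and a line at each group mean. Mrpl50 and Mrpl38 are listed at 0 in all NR libraries, and Mrpl33 has every library above 5.

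Many members lie close to another gene. Exonic bases were shared with another annotated gene by 33 members, 8 of them on the same strand, among them Mrps34 with Nme3 and Mrps6 with Slc5a3. Of the members compared above, Mrps24, Mrps18c and Mrpl33 share bases with Urgcp, Gm43511 and Gm43809 on the same strand, and Mrpl9, Mrpl27 and Mrpl21 with Oaz3, Eme1 and Ighmbp2 on the other. The sources used here do not say whether the counting used strand, so the values of these members are uncertain. Among the partners that share exonic bases with the compared members, only Urgcp reached 1 FPKM in any library. It measured 38.1, 17.0 and 16.5 FPKM across NR and 0.0192, 0.173 and 28.3 FPKM across Run. Starts of 33 members lay within 1000 bp of the start of a coding gene on the opposite strand, which made 32 pairs, since Mrpl46 and Mrps11 pair with each other. In 4 of the 32 pairs both genes were detected together in at least 4 libraries, and these were Mrpl18 with Tcp1, Mrpl36 with Ndufs6, Mrpl47 with Ndufb5 and Mrpl48 with Rab6a. Mrpl36 and Ndufs6, a complex I subunit, start 29 bp apart. Ndufs6 measured 199.6 to 300.3 FPKM in all 6 libraries, while Mrpl36 measured 51.7, 0.0517 and 119 FPKM across NR and 56.1, 134 and 22.3 FPKM across Run. Mrps12 and Sars2, the mitochondrial seryl-tRNA synthetase, start 172 bp apart, and Sars2 was listed at 0 in every library in which Mrps12 was detected. The members Mrpl46 and Mrps11 start 412 bp apart on opposite strands. Mrps11 measured 45.7, 41.2 and 38.3 FPKM across NR and 57.5, 0 and 35.4 FPKM across Run, and Mrpl46 52.9, 0.0382 and 45.5 FPKM across NR and 141, 0.0315 and 0 FPKM across Run, so both were detected together in 3 libraries.

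Among other nuclear genes of mitochondrial translation, 20.0% to 60.0% of the values were detected, depending on the list, and none passed the adjusted threshold. With the mitochondrially encoded mRNAs, the 6 lists held 78 genes in the table, of which 34 were tested, 0 passed the adjusted threshold, 2 were higher and 1 was lower in Run at an unadjusted p under 0.05, against 2.45% and 2.49% of all tested genes. Detected values made up 60.0% for 5 mitoribosome proteins under other symbols, 33.3% for 10 translation factors, 26.4% for 24 assembly and rRNA modification factors, 20.0% for 20 aminoacyl-tRNA synthetases and 18 of 36 for 6 genes of mitochondrial transcription and mRNA stability. All 13 mitochondrially encoded mRNAs, the templates of this ribosome, were detected in all libraries, with a median gene mean of 3011 FPKM. Of these, mt-Co1, a subunit of cytochrome oxidase, had the highest mean, 7258 FPKM. The smallest p among them belonged to mt-Nd4, with 2068, 3238 and 2140.1 FPKM across NR and 1356, 2306 and 1479 FPKM across Run and overlapping groups.

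The 3 genes at an unadjusted p under 0.05 were all from the assembly list. C1qbp, a matrix protein needed for mitochondrial translation, measured 0, 12.7 and 14.8 FPKM across NR and 104, 40.99 and 207 FPKM across Run. All Run libraries lay above NR, with a difference of 4.01 ± 1.38 (SE) on the log2(FPKM + 1) scale (limma, unadjusted p = 0.0228, adjusted p = 0.746). Malsu1, an assembly factor of the large subunit chosen after its values were seen, measured 0, 5.86 and 0 FPKM across NR and 8.99, 25.4 and 38.2 FPKM across Run, also without overlap and with a difference of 3.52 ± 1.36 (SE) on the log2(FPKM + 1) scale (limma, unadjusted p = 0.0363, adjusted p = 0.936). Dhx30, an RNA helicase of mitoribosome assembly, measured 23.5, 37.2 and 13.7 FPKM across NR and 0, 6.68 and 0 FPKM across Run. All Run libraries lay below NR, with a difference of −3.60 ± 1.36 (SE) on the log2(FPKM + 1) scale (limma, unadjusted p = 0.0330, adjusted p = 0.905). Among synthetases, Lars2 alone was detected in all 6 libraries, at 78.5, 112 and 82.5 FPKM across NR and 90.95, 90.99 and 91.4 FPKM across Run, with overlapping groups. Aurkaip1 and Chchd1, small subunit proteins, had mean levels of 114 and 58.4 FPKM and were listed at 0 in Run replicate 3 and in NR replicate 3, respectively. Slirp, which stabilises mitochondrial mRNAs with Lrpprc, measured 219, 3.94 and 0 FPKM across NR and 81.99, 105 and 79.3 FPKM across Run, and Tfb2m, a mitochondrial transcription factor, 39.8, 40.2 and 16.4 FPKM across NR and 46.8, 0 and 0 FPKM across Run, both with overlap. The other named genes, Mtif3, Tsfm, Wars2, Fars2 and mt-Nd5, overlapped between groups and had unadjusted p from 0.0974 to 0.503 in limma.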

How the data were processed

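Polyadenylated RNA of sorted tdTomato-positive cells was measured in 6 Smart-seq2 libraries, 3 per group, grouped by the labels. The authors deposited FPKM values in 1 table of 55367 gene symbols. Trimmomatic 0.39, STAR 2.7.5c, StringTie 2.1.7 and the build mm10 are named, without roles, per the submitters' processing notes. The sources used here do not say which tool and annotation gave the FPKM. Coordinates and transcript lengths came from GENCODE M21 (53289 symbols matched, all 78 members included).

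Values were tested as log2(FPKM + 1), which understates changes of low genes, for 6155 genes that reached FPKM 1 in 3 or more libraries. A 2-sided limma test with a trend (limma 3.58.1, R 4.3.3) was adjusted by Benjamini-Hochberg over these genes, with a threshold of 0.05. Its SE and p for a gene draw on the scatter of that gene and on that of tested genes of similar level. Means ± SD are given only for genes at 1 FPKM or more in all 6 libraries. Tables and plots used Python 3.11.15, numpy 2.4.6, pandas 2.3.3 and matplotlib 3.10.9.

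Named are members without overlap or at an unadjusted p under 0.05, the 5 highest of each subunit, those detected in all or no libraries, the 3 steadiest and most variable, the S18 paralogues, members with special roles, and per other list the 2 genes with the smallest p and the highest. The members and lists were chosen with earlier results of these data known. Alternatives were other pseudocounts, filters and scalings, limma without the trend, a replicate block and leaving out each library.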

Additional observations from a re-analysis of the deposited data

How the results depend on the processing

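The count of members past the adjusted threshold was 0 in all 14 alternatives run. At an unadjusted p under 0.05, the 5 members became 0 of 14 when FPKM of at least 1 was required in all 6 libraries, a test of fewer genes (4.68% of all genes tested), and numbered 4 to 7 in the other settings with all libraries (2.33% to 5.43%). Leaving out 1 library gave 3 to 6 (4.91% to 5.93%). Without members detected in the 3 libraries of 1 group only, chosen after seeing the data, 3 of 62 were at an unadjusted p under 0.05 and 7 did not overlap. Members without overlap numbered 9, and 1 of 14 with that stricter filter (9.19% of all genes tested); leaving out 1 library gave 12 to 18 (16.4% to 20.4%), where fewer libraries leave less room for overlap. The median difference of −0.26 stayed negative, from −0.53 to −0.08 on leaving out 1 library and from −0.39 to −0.14 in the other settings, of which −0.39, without the 2 members listed at 0 in a whole group, was chosen after seeing the data. Members detected in all libraries numbered 21 above 0 FPKM and 12 at 5 FPKM or more. None of the 10 members with a reported difference changed sign in any setting run for it, and none passed the adjusted threshold. For the 9 without overlap, leaving out a library or changing the pseudocount could not change the sign. Mrpl50 and Mrpl38 entered the test through Run alone, and no p is printed for them. Among the other members with a reported difference, the lowest adjusted p from limma was 0.307, for Mrps15 without the trend. With pseudocounts of 0.1 and 5, the differences were 7.52 and 3.69 for Mrps15, −5.54 and −3.24 for Mrpl34, and −6.53 and −2.95 for Mrpl9. Whether the replicate numbers of the labels pair the libraries is not known. Same-numbered libraries correlated at only 0.021, 0.0042 and 0.018 in their deviations from the group means across genes. Each library still correlated best with its own number, a hint from the data and not from the design. With a replicate block, 5 members were at an unadjusted p under 0.05 and 0 past the adjusted threshold, and 251 genes in all, against 304, were at an unadjusted p under 0.05. Depth is unknown, so gaps near 0 cannot be weighed by read counts.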
